A study of Schizosaccharomyces pombe with 6 samples.

Results

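The 6 genes described first carry the name cid and encode Cid1-type nucleotidyltransferases of fission yeast (Schizosaccharomyces pombe), enzymes that add nucleotides to the 3′ ends of RNA without a template. The 7th gene, crp79, also named meu5, encodes an RNA-binding protein. The members were chosen by gene name: cid1, cid11, cid12, cid13, cid14, cid16 and crp79, each with 1 probe set, so that 7 of 2936 S. pombe probe sets are described. The set was proposed because cid11 and crp79 were among the highest values of the strain lacking fkh2 set against wild type. The difference between those 2 groups is therefore given for all 7 members as a description, with no test, and so is fkh2-S2A minus fkh2delta, which uses the same fkh2delta arrays.

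Members of this enzyme family act at different places in the cell. Cid1 is known as a cytoplasmic poly(U) polymerase that tags mRNAs for decay, Cid13 as a cytoplasmic poly(A) polymerase that acts on the suc22 mRNA, and Cid14 as the nuclear polymerase of the TRAMP complex, which marks RNAs for the exosome. Cid12 belongs to the RNA-directed RNA polymerase complex of heterochromatin silencing with Rdp1 and Hrr1, and Cid16 is known for tailing small RNAs bound to Argonaute. Crp79 is known as a poly(A)-binding protein in mRNA export and, under the name Meu5, as a protein that stabilises mRNAs in meiosis.

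Total RNA from exponentially growing cultures in rich medium (YEL) was hybridised to Affymetrix yeast arrays, and each probe set has 1 log2 signal per array. The 6 arrays form 3 groups of 2: fkh2delta (strain CG 116, deleted for the gene of the forkhead transcription factor Fkh2), the fkh2-S2A mutant (strain CG 209) and wild type (strain CG 209). The labels do not spell out the S2A change, and nothing in them tells whether both arrays of a group had cultures of their own, so that p-values cover array-to-array spread only, possibly a technical one. The strain name of fkh2delta differs from that of both other groups, so the effects of the deletion and of the strain background cannot be told apart. The ura4 signal also set fkh2delta apart, with 5.40 and 6.17, against 12.83 and 12.85 in fkh2-S2A and 12.79 and 12.56 in wild type. Its difference between fkh2delta and wild type, -6.89, was the lowest of 2936 probe sets, and its origin was not tested.

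The fkh2 signal was 4.34 and 4.05 on the fkh2delta arrays, 7.47 and 7.76 in fkh2-S2A and 7.53 and 7.39 in wild type, so it was low only on the arrays labelled as the deletion. The background level, the 95th percentile of probe sets annotated to genes of no S. pombe match, lay between 5.17 and 5.35, and the median S. pombe signal between 10.1 and 10.2. Over all probe sets the median difference was 0.16 for fkh2delta minus wild type and 0.04 for fkh2-S2A minus wild type. A measure of RNA quality, the mean 3′ minus 5′ signal of 6 control genes, was 1.53 and 1.60 in fkh2delta, 1.34 and 1.24 in fkh2-S2A and 1.27 and 1.27 in wild type, and its part in the results below was not tested. The precision is limited by having 2 arrays per group.

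**Figure D1:**
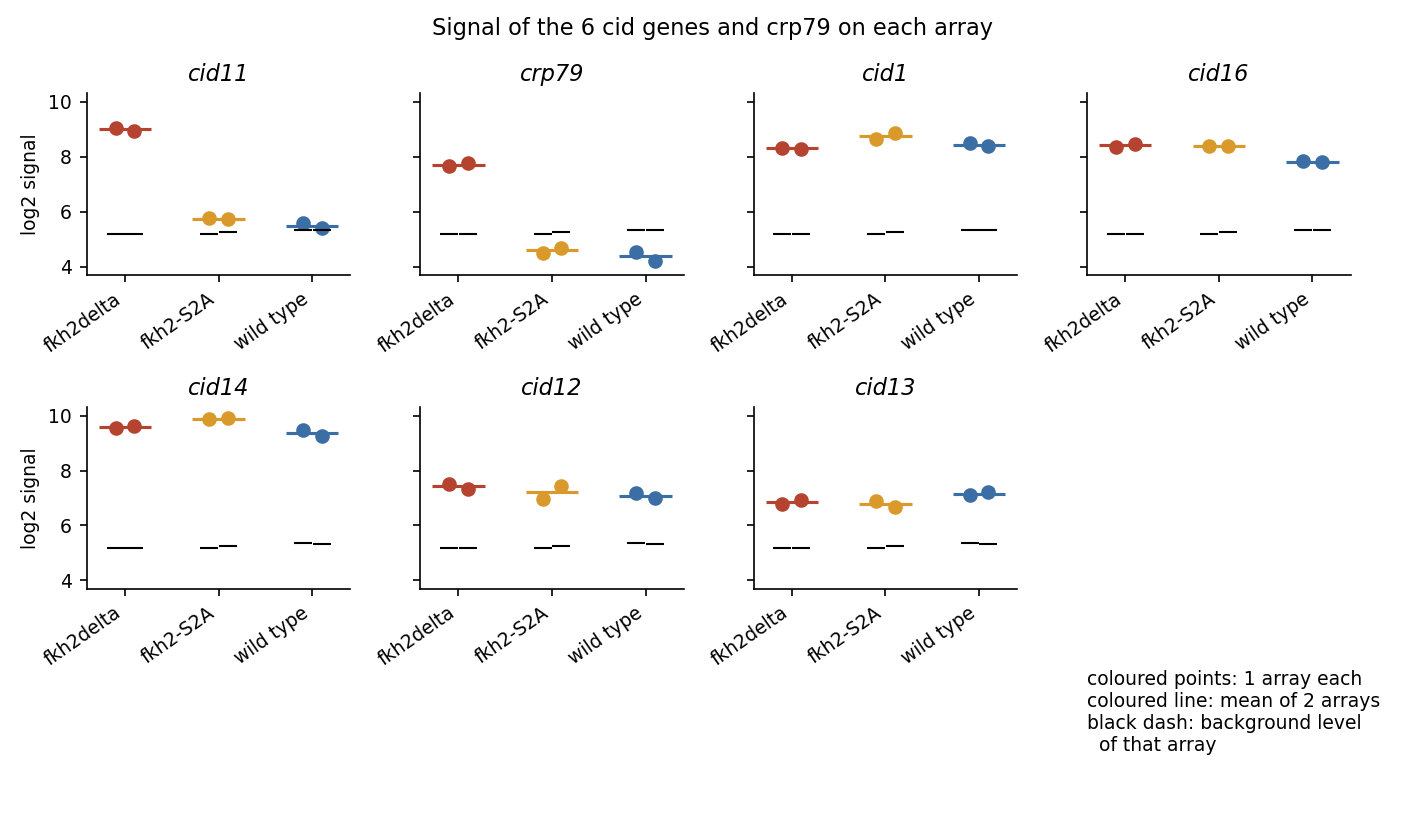
Log2 signal of the 6 cid genes and crp79 (vertical axis) in fkh2delta, fkh2-S2A and wild type, with 1 point per array, a line at each group's mean and a black dash at each array's background level. The cid11 and crp79 signals stand apart in fkh2delta, and crp79 lies below background on all 4 other arrays.

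The cid11 transcript gave a signal above the background level on every array and was much higher in the strain lacking fkh2. Its signal was 9.05 and 8.95 on the fkh2delta arrays, 5.75 and 5.73 on the fkh2-S2A arrays and 5.58 and 5.40 on the wild-type arrays. Both fkh2delta values lay far above the other 4, and the wild-type values lay just above the background levels of those arrays, 5.35 and 5.34. The difference of fkh2delta from wild type was 3.51 ± 0.10 on the log2 scale (standard error of the limma fit, n = 2 arrays per group), or 11.4-fold, the 8th highest of 2936 probe sets. That fold rests on wild-type signals near background. For fkh2-S2A minus fkh2delta the difference was -3.26 ± 0.10.

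The crp79 transcript had a like pattern at a lower signal. It gave 7.65 and 7.78 in fkh2delta, 4.50 and 4.68 in fkh2-S2A and 4.55 and 4.21 in wild type. Only the fkh2delta arrays were above background, so the difference has a bound: crp79 was at least 5.16-fold higher in fkh2delta than in wild type, where a dim array was set to its background level. By the same rule the fkh2-S2A level of crp79 was at least 5.602-fold lower than in fkh2delta.

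The other 5 members showed far smaller differences between fkh2delta and wild type, from -0.31 to 0.60. The cid16 signal was 8.36 and 8.47 in fkh2delta, 8.39 and 8.40 in fkh2-S2A and 7.84 and 7.80 in wild type. Both mutants thus lay above wild type without overlap and overlapped each other, with a difference of 0.60 ± 0.09 for fkh2delta minus wild type. The cid12 signal was 7.52 and 7.33 in fkh2delta, 6.97 and 7.44 in fkh2-S2A and 7.17 and 6.99 in wild type. The fkh2delta arrays lay above the wild-type ones by 0.35 ± 0.16, while the fkh2-S2A arrays spanned nearly the whole range.

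The TRAMP polymerase gene cid14 had 9.55 and 9.63 in fkh2delta, 9.86 and 9.91 in fkh2-S2A and 9.49 and 9.25 in wild type. The groups did not overlap, with fkh2-S2A highest and wild type lowest, and fkh2delta exceeded wild type by 0.22 ± 0.11. The poly(U) polymerase gene cid1 had 8.33 and 8.30 in fkh2delta, 8.65 and 8.88 in fkh2-S2A and 8.49 and 8.37 in wild type, which put fkh2delta lowest, 0.12 ± 0.11 below wild type and thus close to 1 standard error from it. The cytoplasmic poly(A) polymerase gene cid13 had 6.78 and 6.93 in fkh2delta, 6.89 and 6.67 in fkh2-S2A and 7.11 and 7.22 in wild type. Here both mutants lay below wild type and overlapped each other, and fkh2delta minus wild type was -0.31 ± 0.11.

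Set against the shift of all probe sets (median 0.16), the fkh2delta differences were 0.44 for cid16, 0.19 for cid12, 0.06 for cid14, -0.28 for cid1 and -0.46 for cid13. The 2 groups did not overlap for any of the 7 members, which was also so for 87.1% of all probe sets, and 5 members were higher in fkh2delta, against 53.1% of all probe sets, and 2 lower, against 34.0%. After quantile normalization the smaller differences moved: cid12 turned to -0.27, cid13 was -0.98, cid1 was -0.39, cid16 was 0.30 and cid14 was 0.05. The cid11 difference was then 3.16.

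**Figure D2:**
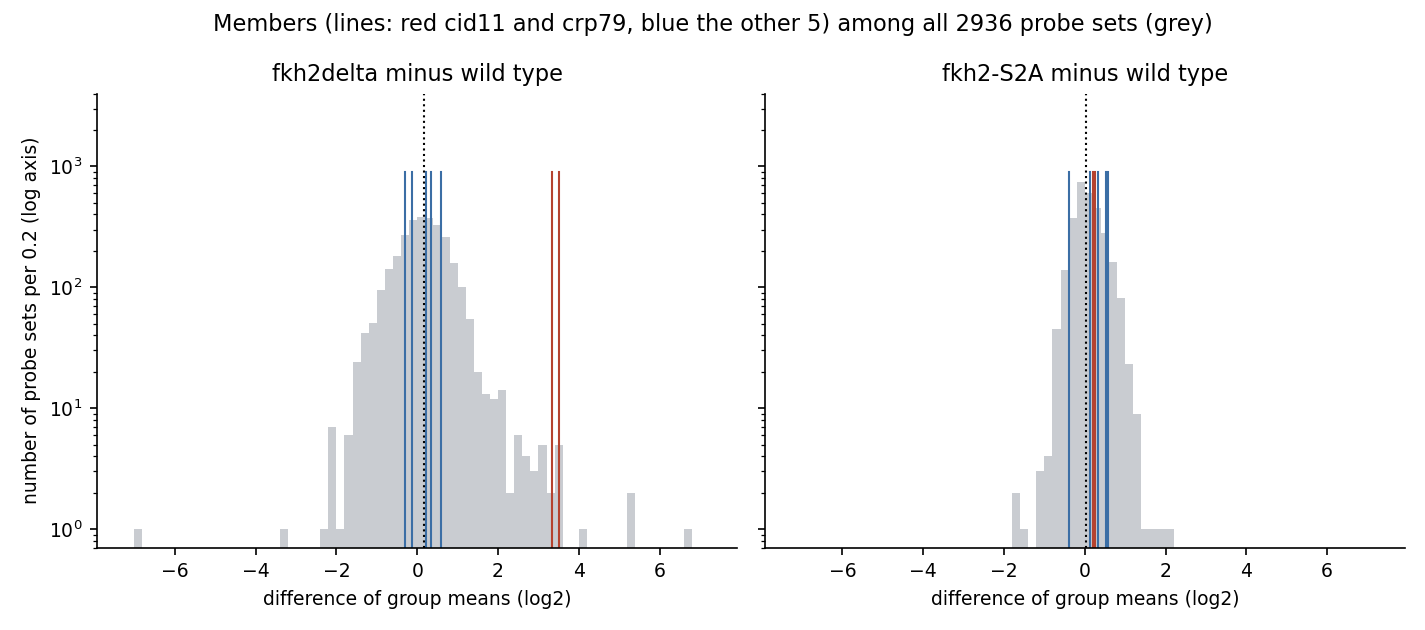
Number of probe sets (log axis) by difference of group means (log2) for fkh2delta minus wild type and fkh2-S2A minus wild type, with all 2936 probe sets in grey, cid11 and crp79 as red lines, the other 5 members as blue lines and the median of all probe sets dotted. The red lines lie at 3.51 and 3.34 for fkh2delta and at 0.25 and 0.21 for fkh2-S2A, where they fall among the other members, and the crp79 lines are drawn at measured values that were below background in fkh2-S2A and wild type.

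Setting fkh2-S2A against wild type shows which transcripts differed between the arrays of these groups. The members were not proposed from this comparison. It does use the same wild-type arrays as the comparison behind their choice, so it is not fully independent of that choice. Of the 7 members 3 rose and 1 fell in fkh2-S2A, against 33.3% of all probe sets called, 23.5% higher and 9.84% lower (limma, Benjamini-Hochberg adjustment over 2936 probe sets, threshold 0.05). The rises were cid16 (0.58 ± 0.09, adjusted p = 0.00318), cid14 (0.51 ± 0.11, adjusted p = 0.00822) and cid1 (0.33 ± 0.11, adjusted p = 0.0449), and cid13 fell (-0.38 ± 0.11, adjusted p = 0.0308). The changes of these 4 genes were between 0.767-fold and 1.49-fold. The cid11 difference (0.25 ± 0.10, adjusted p = 0.0871), the cid12 difference (0.12 ± 0.16, adjusted p = 0.583) and the crp79 difference (0.21 ± 0.13, adjusted p = 0.246) did not pass, and crp79 was below background in both groups.

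The number of members called rested on single arrays. It was 2 without fkh2-S2A replicate 2 or wild-type replicate 1 and 1 without wild-type replicate 2. The cid16 call held in all 14 other settings, with differences from 0.33 (quantile normalization) to 0.60. The cid14 call ended without wild-type replicate 2 (0.40, adjusted p = 0.0687), the cid13 call in 3 settings that left out 1 array, and the cid1 call in 10 of 14 settings, among them quantile normalization (0.10, adjusted p = 0.432) and median centring (0.25, adjusted p = 0.0892). Signals also differed between arrays in a trend with gene length, with slopes per doubling of length of -0.073 and -0.060 in fkh2delta, 0.070 and 0.11 in fkh2-S2A and -0.034 and -0.010 in wild type. With this trend removed 3 members still rose and 1 fell, and the cid12 difference was -0.015.

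Between the mutants, fkh2-S2A minus fkh2delta was 0.45 ± 0.11 for cid1, 0.30 ± 0.11 for cid14, -0.02 ± 0.09 for cid16, -0.08 ± 0.11 for cid13 and -0.22 ± 0.16 for cid12, beside -3.26 for cid11. The groups did not overlap for cid1 and cid14, which were higher in fkh2-S2A, or for cid11 and crp79, which were lower. Of all probe sets 78.2% did not overlap in this comparison, 37.3% higher and 40.9% lower. The 3 others overlapped between the mutants.

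The cid11 and crp79 profiles were compared with those of the other members, although a likeness between them is partly fixed by the choice of both for their fkh2delta values. Each profile is a gene's 6 signals minus their mean, and likeness is the root mean square difference between a pair of profiles over the 6 arrays. It was 0.13 between cid11 and crp79, against 1.46 to 1.73 between cid11 and the 5 other cid genes. The next closest pairs were cid1 with cid14 (0.15) and cid14 with cid16 (0.18). The 6 points of a profile come from 3 groups, so the likeness of cid11 and crp79 is mostly that of 1 group standing apart, and crp79 was below background on the 4 other arrays.

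The 3 probe sets with profiles closest to cid11, of 2860 candidates whose mean over the 6 arrays was above background, were mug133 (0.15), mug135 (0.16) and spn6 (0.21). For crp79 they were mug135 (0.13), mug133 (0.15) and hsp16 (0.16). The mug genes were named for their upregulation in meiosis, spn6 encodes a meiotic septin and hsp16 a small heat-shock protein. The mug135 signal was 10.96 and 10.91 in fkh2delta, 8.04 and 7.92 in fkh2-S2A and 7.90 and 7.55 in wild type, well above background on each array. The spn6 signal was 7.73 and 8.16 in fkh2delta, 4.32 and 4.66 in fkh2-S2A and 4.38 and 4.35 in wild type, with only the fkh2delta arrays above background, so its likeness rests on values below background elsewhere, and mug133 was not above background in wild type.

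**Figure D3:**
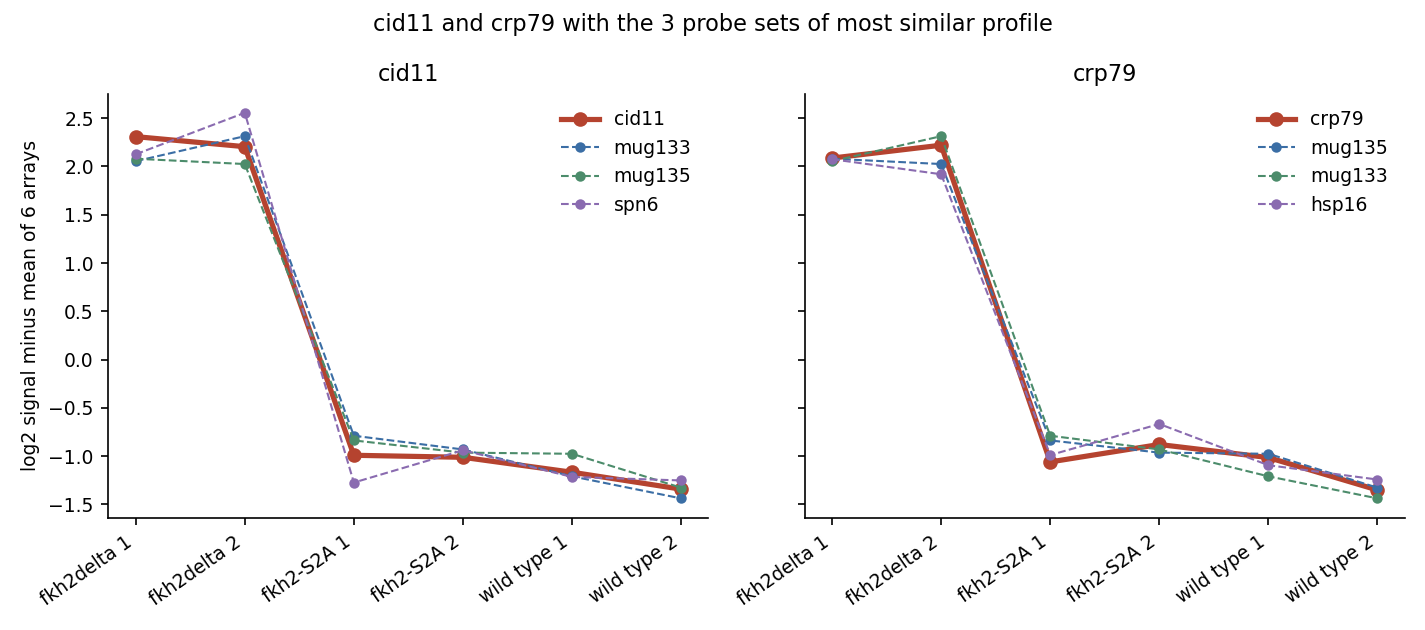
Log2 signal minus the gene's mean over 6 arrays (vertical axis) on each array for cid11 and crp79 (thick lines) and the 3 probe sets with the closest profiles (dashed). In each panel every gene lies above 0 on both fkh2delta arrays and below 0 on the 4 other arrays.

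The profiles closest to the other members ran within a narrower range. They were uve1 (0.022), apm1 (0.041) and nrs1 (0.042) for cid1, apl5 (0.026), rml2 (0.033) and the poly(A)-binding protein gene pab1 (0.050) for cid14, and iws1 (0.036), rga1 (0.038) and pst2 (0.042) for cid16. For cid13 they were cmk2 (0.036), thi5 (0.057) and gms1 (0.057), and for cid12 dlp1 (0.057), cwf28 (0.080) and mrpl9 (0.086).

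Of 18 marker genes of meiosis and sporulation, 10 rose, 1 fell and 7 did not pass in fkh2delta. The shares over all probe sets were 64.0% called, 40.4% higher and 23.6% lower. In fkh2-S2A 2 rose and 3 fell, against 33.3% of all probe sets called, 23.5% higher and 9.84% lower. Of the 18 markers, 7 were not above background in either fkh2-S2A or wild type, so a change in them could not be seen there. The mean signal of the 18 was 7.44 and 7.46 in fkh2delta, 6.004 and 6.17 in fkh2-S2A and 6.13 and 6.07 in wild type. These means include markers at or below background, 3 and 4 in fkh2delta, 8 and 8 in fkh2-S2A and 8 and 7 in wild type. Among the genes that rose in fkh2delta were meu14 (5.35 ± 0.09), dmc1 (3.08 ± 0.17), a recombinase gene, spn7 (2.90 ± 0.17), another septin gene, spn6 (at least 6.04-fold) and isp3 (at least 4.99-fold), a spore coat gene. In fkh2-S2A mei2 (0.71 ± 0.12), the gene of the RNA-binding regulator of meiosis, and rec10 (0.70 ± 0.12) rose. Those falling there were mes1 (-0.70 ± 0.13), bgs2 (-0.56 ± 0.14, lost in 2 of 14 other settings) and meu14 (-0.40 ± 0.09). In fkh2delta mei2 (2.19 ± 0.12), rec10 (2.24 ± 0.12) and bgs2 (0.81 ± 0.14) rose, while mes1 did not pass (0.05 ± 0.13). The defining markers rec8, spo4 and spo5 were not above background in any group, although spo4 counts among the rises, and mei4, the gene of the forkhead factor of middle meiosis, did not pass (0.31 ± 0.13, adjusted p = 0.0673). The counts of this list became 8 higher and 6 lower in fkh2delta after quantile normalization. A few cells in meiosis and more transcript per growing cell cannot be told apart in RNA from whole cultures, and the part of either in the cid11 and crp79 values was not tested.

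The mRNA export list holds a further RNA-binding gene, mug28, which encodes a meiotic protein with RNA recognition motifs as in Crp79. Its signal was 7.36 and 7.93 in fkh2delta, 5.01 and 5.25 in fkh2-S2A and 5.21 and 5.19 in wild type. It rose at least 4.93-fold in fkh2delta and was below background in wild type. The adjusted p of 1.06e-05 (limma) was computed on the measured values, those below background included, and not on this bound. Of 7 measured export genes 4 rose and 2 fell in fkh2delta, against 40.4% and 23.6% of all probe sets. The rises included tho2 (1.13 ± 0.11), a THO complex gene, and the falls were the export receptor gene mex67 (-0.75 ± 0.14) and the helicase gene uap56 (-0.45 ± 0.09). In fkh2-S2A tho2 alone passed (1.26 ± 0.11), against 33.3% of all probe sets called.

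Of the TRAMP partners of Cid14, mtr4 rose in both mutants and air1 passed in neither. In the list of exosome, TRAMP and Mmi1/Red1 genes, 7 of 10 measured genes rose in fkh2delta, against 64.0% of all probe sets called and 40.4% higher, and 4 in fkh2-S2A, against 33.3% called and 23.5% higher. Counts of called genes near the share over all probe sets say nothing particular of the list. The TRAMP helicase gene mtr4 rose by 0.51 ± 0.11 in fkh2delta and by 0.83 ± 0.11 in fkh2-S2A, while the zinc-knuckle gene air1 differed by 0.25 ± 0.10 and 0.08 ± 0.10. The rises in fkh2delta included rrp6 (1.32 ± 0.21), a nuclear exonuclease gene, red1 (1.18 ± 0.15), which acts in the removal of meiotic mRNAs, and the exosome core genes rrp41 (0.61 ± 0.11) and csl4 (0.59 ± 0.11). In fkh2-S2A the rises were red1 (0.93 ± 0.15), mtr4, rrp6 (0.74 ± 0.21, lost in 3 of 14 other settings) and the catalytic exosome gene dis3 (0.73 ± 0.10). The mmi1 gene, whose protein binds meiotic mRNAs for removal, did not pass in fkh2delta (-0.26 ± 0.11, adjusted p = 0.0694). After quantile normalization or median centring the list had 7 higher and 1 lower in fkh2delta. The list's median was 0.54 in fkh2delta and 0.15 in fkh2-S2A, against 0.16 and 0.04 over all probe sets.

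The partners of Cid12 in its complex differed from each other. The helicase gene hrr1 rose by 1.38 ± 0.12 in fkh2delta, while the RNA-directed RNA polymerase gene rdp1 did not pass (0.08 ± 0.10). In fkh2-S2A hrr1 rose by 0.41 ± 0.12, a call lost in 6 of 14 other settings, and rdp1 was at -0.00327 ± 0.10. Of 10 RNA interference genes 6 rose in fkh2delta and 1, the Argonaute gene ago1, fell (-0.62 ± 0.14), again near the 64.0% called over all probe sets. The rises included the silencing complex gene tas3 (1.36 ± 0.09), ers1 (1.17 ± 0.13) and the Dicer gene dcr1 (0.94 ± 0.14, not called after quantile normalization, where it was 0.27). In fkh2-S2A 4 rose, against 33.3% called and 23.5% higher over all probe sets. They were ers1 (0.82 ± 0.13), chp1 (0.75 ± 0.16), hrr1 and tas3 (0.39 ± 0.09). Of these calls chp1 ended in 2 and tas3 in 3 of 14 settings. The medians were 0.50 and 0.30.

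**Figure D4:**
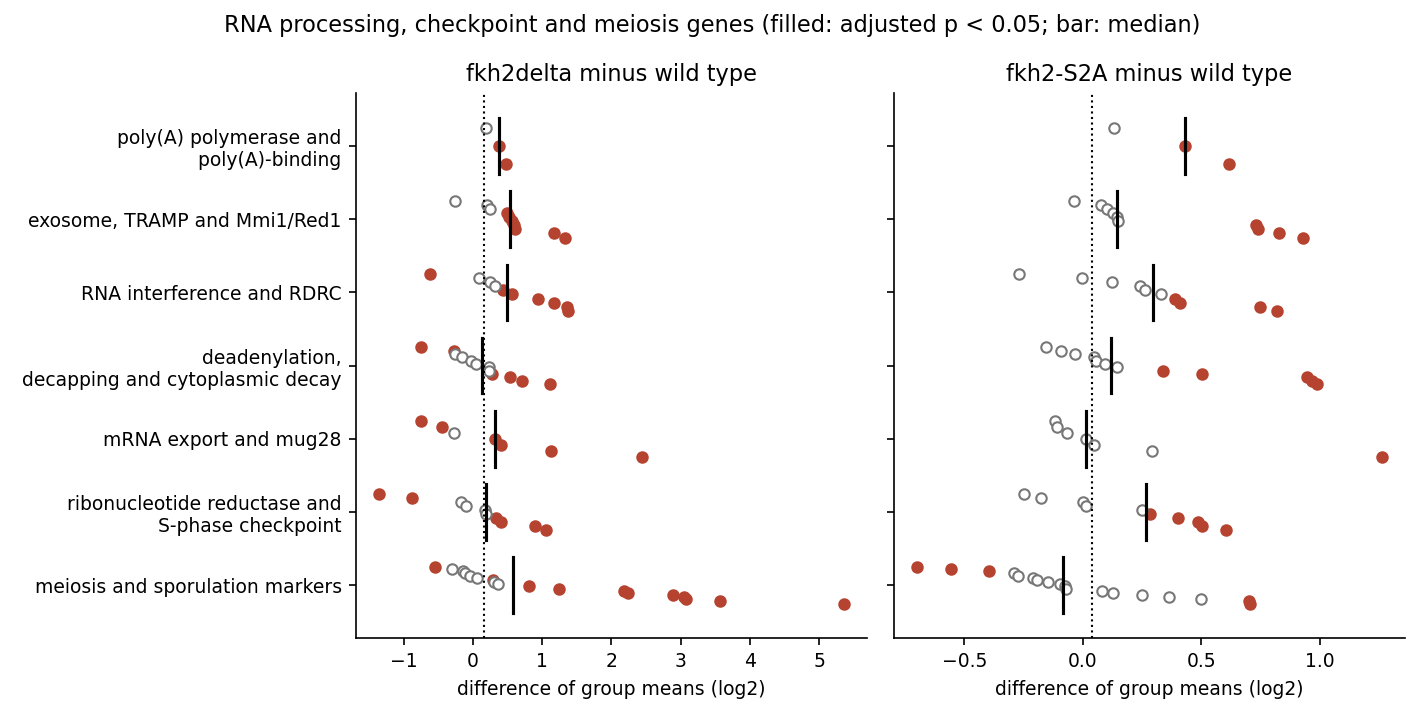
Difference of group means (log2, horizontal axis) of the measured genes of 7 lists, for fkh2delta minus wild type and fkh2-S2A minus wild type (the axes differ in range), with filled points for adjusted p below 0.05, a bar at the list's median and a dotted line at the median of all probe sets. For fkh2delta the dotted line is at 0.16. Right of it lie the medians of the meiosis (0.58, values below background included), exosome (0.54), RNA interference (0.50) and poly(A) (0.38) lists. The export (0.32) and reductase and checkpoint (0.18) medians also lie right of it, and the decay median (0.13) left.

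Genes that act with or after the cytoplasmic enzymes went both ways in fkh2delta. Of 12 deadenylation, decapping and decay genes 4 rose and 2 fell in fkh2delta, a smaller share than the 64.0% called over all probe sets. The 5′ exonuclease gene exo2 (1.104 ± 0.13) and the decapping enzyme gene dcp2 (0.70 ± 0.11) were among the rises, and the deadenylase scaffold gene not1 fell (-0.75 ± 0.10). In fkh2-S2A 5 rose, against 33.3% called and 23.5% higher over all probe sets. Among them were dcp2 (0.99 ± 0.11), not3 (0.97 ± 0.14), exo2 (0.95 ± 0.13) and edc3 (0.50 ± 0.10, not called after quantile normalization). The decay exonuclease of uridylated RNA, Dis32, was not analysed here. The canonical poly(A) polymerase gene pla1 rose in both mutants (0.48 ± 0.13 in fkh2delta, lost in 3 of 14 settings, and 0.62 ± 0.13 in fkh2-S2A, lost in 2). The poly(A)-binding protein genes split: pab2 passed in fkh2delta (0.38 ± 0.10) and pab1 in fkh2-S2A (0.43 ± 0.11), each call lost in 2 of 14 settings.

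The Cid13 substrate suc22, which encodes the small subunit of ribonucleotide reductase, had 13.39 and 13.45 in fkh2delta, 13.33 and 13.35 in fkh2-S2A and 13.13 and 13.04 in wild type. It rose in fkh2delta (0.33 ± 0.09, adjusted p = 0.0115) and did not pass in fkh2-S2A (0.25 ± 0.09, adjusted p = 0.0661). The large subunit gene cdc22 fell in fkh2delta (-0.89 ± 0.14), as did spd1, which encodes an inhibitor of the enzyme (-1.35 ± 0.11), and neither passed in fkh2-S2A (-0.18 ± 0.14 and -0.25 ± 0.11). Of the 10 genes of the reductase and checkpoint list 4 rose and 2 fell in fkh2delta, near the 64.0% called over all probe sets. In fkh2-S2A 5 of them rose, against 33.3% called and 23.5% higher over all probe sets. The checkpoint kinase gene chk1 rose in both (1.05 ± 0.09 and 0.60 ± 0.09), by 0.27 and 0.39 after quantile normalization. Its wild-type signals, 5.353 and 5.468, lay just above the background levels of those arrays, 5.348 and 5.343. The replication checkpoint gene mrc1 rose in fkh2delta (0.89 ± 0.11) and in fkh2-S2A (0.49 ± 0.11, lost in 2 of 14 settings), where rad26 (0.50 ± 0.12, lost in 3) and cds1 (0.40 ± 0.13, lost in 9) also rose. The fkh2-S2A count was 2 after quantile normalization and ran from 1 to 5 over all settings.

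The genes next to a member on its chromosome were read as well, since differences can extend over neighbouring genes. The nearest measured coding genes beside cid11, sec11 and avt5, differed by 0.27 ± 0.09 and 0.16 ± 0.10 between fkh2delta and wild type, against 3.51 for cid11. Between sec11 and cid11 lie 3 coding genes without a probe set of their own in the annotation used. Such genes also lie between members and other neighbours named below, 2 each for ftp105 and wdr21 and 1 each for csn3, spn2, pyp2 and rdl1. Beside crp79, ftp105 and mmc1 were at -0.03 ± 0.09 and -0.12 ± 0.10. Neither pair had a difference near that of its member. The neighbours of cid13, csn3 (0.59 ± 0.13) and spn2 (0.70 ± 0.11), rose in fkh2delta, where cid13 lay below wild type.

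Both neighbours of cid12 rose in fkh2delta, saf1 by 1.00 ± 0.11 and naa50 by 1.03 ± 0.12, beside the cid12 difference of 0.35. In fkh2-S2A saf1 rose by 0.85 ± 0.11, beside 0.12 for cid12 and 0.08 ± 0.12 for naa50. The cid14 neighbour pfs2, which encodes a polyadenylation factor subunit, rose by 0.72 ± 0.10 in fkh2-S2A, on the same side as cid14. On the other side of cid14, wdr21 rose by 0.50 ± 0.12 in fkh2delta and by 0.36 ± 0.12 in fkh2-S2A. These wdr21 calls were lost in 1 and 7 of 14 settings. Near cid16, vps1 rose by 0.50 ± 0.11 in fkh2delta and by 0.35 ± 0.11 in fkh2-S2A, where its call was lost in 8 of 14 settings, and rdl1 passed in neither. Beside cid1, pyp2, a tyrosine phosphatase gene, fell by 0.84 in fkh2delta and by 0.38 in fkh2-S2A (standard error 0.11 each; the fkh2-S2A call was lost in 2 of 14 settings), and ptr1 did not pass.

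**Figure D5:**
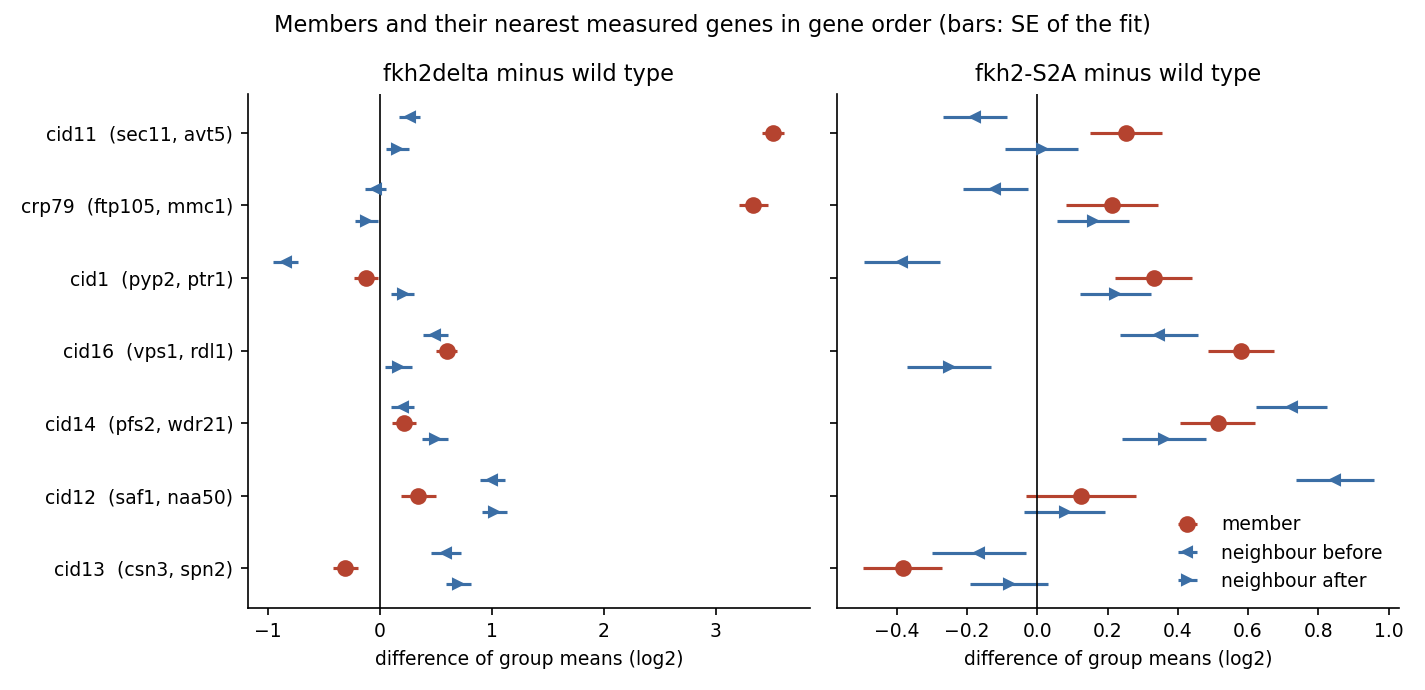
Difference of group means (log2, horizontal axis) of the 7 members (red circles) and the nearest measured coding gene on each side (blue triangles, named beside the member), with bars for the standard error, for fkh2delta minus wild type and fkh2-S2A minus wild type (the axes differ in range). The genes beside cid11 and crp79 lie between -0.12 and 0.27 for fkh2delta.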

How the data were processed

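Per the labels' protocols, biotin-labelled total RNA was hybridised to Affymetrix yeast arrays. The authors deposited 1 value per probe set and array, taken here as log2 from its range; the summary step and its software were not given in the sources used here. Values were used as deposited.

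Of 10928 probe sets, 5538 were listed in the platform annotation; 2936 of these were tied, through Entrez identifiers or symbols, to genes of the S. pombe assembly ASM294v3, 2917 to 1 gene. All 7 members matched by Entrez identifier or symbol. The assembly gave names, gene order and length; no sequence was analysed here.

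One limma 3.58.1 model (R 4.3.3) over 6 arrays had group as its term, moderated statistics and Benjamini-Hochberg adjustment over 2936 probe sets, two-sided, threshold 0.05; it was tested on simulated data. Where neither array of a group exceeded background, the difference is a bound ("at least N-fold").

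Members and lists were chosen with earlier results of these data known. Up to 4 genes that passed, by size, are named per list and comparison. Members, partners of known role, the 3 closest profiles and the nearest measured neighbours are named besides. Among the meiosis markers spn7 in fkh2delta and meu14 in fkh2-S2A are named beyond these 4, as are rec8, spo4, spo5 and mei4. Values of mei2, rec10, bgs2 and mes1 in fkh2delta are given beside those in fkh2-S2A. The genes ago1 and mmi1 were added after their values were seen. The probe set with the highest mean stood for a gene. The symbol pat1, listed for a decay factor, belongs to a kinase gene in S. pombe and was left out. Alternatives were quantile normalization, median centring, removal of the length trend, a filter on dim probe sets, trended or robust eBayes, a fit on 2 groups, the replicate number as a block, and each array left out.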

Additional observations from a re-analysis of the deposited data

How the results depend on the processing

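The cid11 difference between fkh2delta and wild type was 3.16 after quantile normalization and 3.39 after median centring, and the crp79 difference, measured against wild-type values below background, was 2.88 after quantile normalization; with 1 array left out they ran from 3.42 to 3.60 and from 3.17 to 3.50. Members called in fkh2-S2A ranged from 1 to 4 and all probe sets called from 287 (without wild-type replicate 2) to 921 with 1 array left out. Calls in fkh2delta then ranged from 1407 to 1953. The cid12 difference between fkh2-S2A and wild type, 0.12, turned to -0.13 after quantile normalization, -0.015 with the length trend removed and -0.11 without fkh2-S2A replicate 2, and reached 0.36 without fkh2-S2A replicate 1; the cause was not tested. Median centring made the split in fkh2-S2A 560 higher and 498 lower, against 689 and 289 as deposited, and in fkh2delta 979 and 908, against 1186 and 693. Of 196 list counts under other settings, 17 moved by over 1.5 times. With the replicate block, 1768 probe sets were called in fkh2delta and 836 in fkh2-S2A, with 3 members (cid1 was lost, adjusted p = 0.0726); same-numbered arrays deviated with correlations of -0.27, -0.18 and -0.085, so the numbers were not taken to pair the arrays. Signal near background limits the wild-type values of cid11 and crp79.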
